A study of Mus musculus with 10 samples.

Results

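The transcriptome described here is that of mouse hippocampal neurons kept in primary culture and given lipid nanoparticles that carried scramble RNA, the control condition of the study. Its members are the 2 libraries whose labels read control (replicates 1 and 2), out of 10 libraries in the whole series. The other 8 libraries, whose nanoparticles carried anti-miRs (inhibitors of microRNAs), are not used, so that there is no comparison between groups and no test, and each level is given for both libraries. All cells were exposed for 48 h within days 10 to 12 in vitro, so that the control cells, too, had taken part in a nanoparticle treatment and are not untouched neurons. The labels give neither strain, age nor sex of the animals, and nothing in them says that the libraries came from separate cultures or animals. The spread between them may therefore be technical.

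Dissociated hippocampus gives a culture in which glutamatergic pyramidal and granule neurons, a minority of GABAergic interneurons and dividing glia grow side by side. In the days before synapses are fully mature, such neurons lay down axons and dendrites, assemble vesicle release sites and postsynaptic densities, and exchange fetal for adult forms of receptor subunits and chloride transporters. Vessels, blood and most microglia belong to the tissue but are largely left behind by dissociation and culture, and the growth medium decides how many glia and meningeal cells persist.

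Polyadenylated RNA was read as single-end reads of 50 bp, and the tables held 27288613 and 29317799 counts assigned to genes. A level within a gene is given as its count scaled to the library's total (CPM), 1 CPM being 27.3 counts in replicate 1 and 29.3 in replicate 2. Levels of different genes are set against each other per length, as counts per exonic base scaled to an equal sum in each library (TPM). The exceptions are the noncoding genes and the mitochondrial genes with most counts, which are ranked by CPM, without length. A gene was called detected at 1 CPM or more in both libraries, and not detected at 3 counts or fewer in both, a limit that corresponds to 0.1099 and 0.1023 CPM; the genes between are called low and given by their counts. By this rule 13734 of 48709 genes in the tables were detected (28.2%), among them 12781 of 21695 protein-coding genes (58.9%). A further 6386 protein-coding genes (29.4%) were not detected. The share of 58.9% is the background against which the counts of each family are read below. Where a pair of values follows a gene, replicate 1 comes before replicate 2.

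Markers of neurons, the cell type in the labels, were present in both libraries at high levels, and so were those of astrocytes. Snap25, which encodes a SNARE protein of the presynaptic membrane (chr2:136713453-136782428, ENSMUSG00000027273), was at 496 and 542 TPM. The dendritic microtubule protein gene Map2 (chr1:66175273-66442583, ENSMUSG00000015222) stood at 520.1 and 529 TPM. Slc17a7, the vesicular glutamate transporter VGLUT1 (chr7:45163949-45176142, ENSMUSG00000070570), was at 979.6 and 939 TPM, above both of these genes. The GABA-synthesising enzyme gene Gad1 (chr2:70553072-70602014, ENSMUSG00000070880) was lower, at 136 and 135 TPM. Among astrocyte genes, the intermediate filament gene Gfap (chr11:102887336-102900912, ENSMUSG00000020932) was at 509 and 544 TPM and the glutamate transporter gene Slc1a2 (chr2:102658659-102790784, ENSMUSG00000005089) at 617 and 655 TPM. Each of the 6 genes differed little between the libraries, and the astrocyte genes lay in the range of Snap25 and Map2, against a median of 27.1 and 27.0 TPM over all detected protein-coding genes. With the length of the longest transcript in place of all exonic bases, the mean of Map2 was 1065 TPM, above Gfap at 648 and Slc1a2 at 557 TPM, so that its likeness to the astrocyte genes rests on the length used. The coordinates are those of GENCODE release M21 on GRCm38 (mm10).

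**Figure D1:**
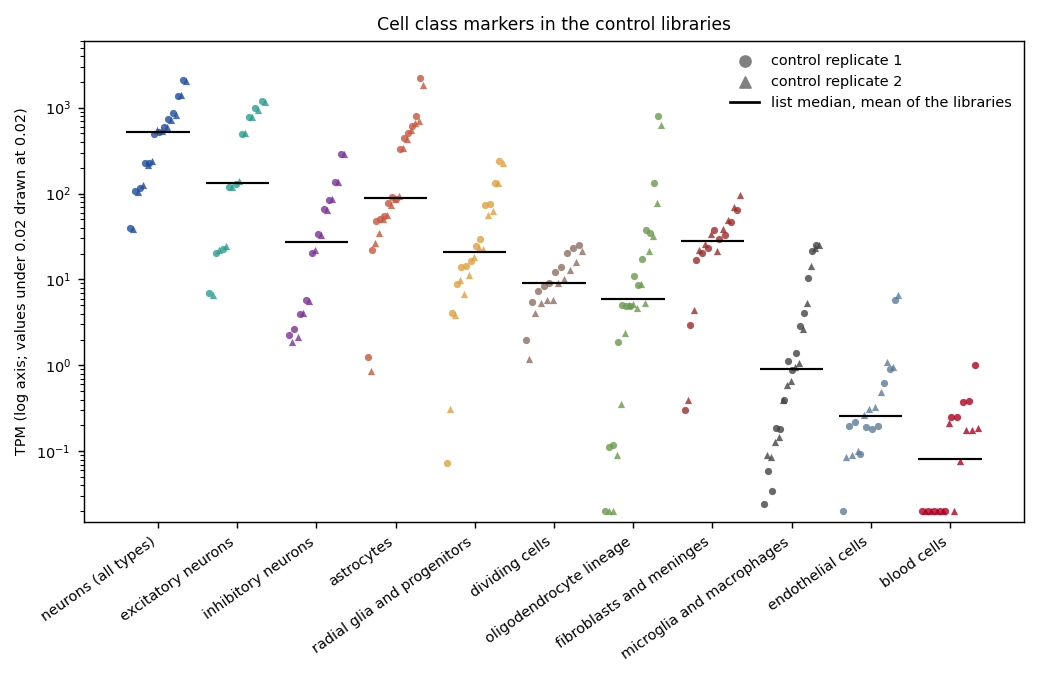
Levels of cell class markers in TPM (log axis) for control replicate 1 (circles) and replicate 2 (triangles), each symbol a gene and each bar the median of a list, taken as the mean of both libraries. Neuron markers had medians of 508 and 535 TPM, and astrocyte markers 89.4 and 90.1 TPM, while the blood cell list had 0.125 and 0.0388 TPM.

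The libraries were close to each other across genes, though not alike beyond counting error. Over the 9801 genes of known length with a mean of 10 CPM or more, the median absolute difference between the libraries was 0.06 on the log2(CPM + 1) scale and the 95th percentile 0.21. Of these genes, 15 differed by more than 1.5-fold (0.153%) and 1 by more than 2-fold. The biological coefficient of variation, estimated with edgeR as a common dispersion, was 0.0429. A chi-square of the counts over 16139 genes came to 4.01 per degree of freedom, so the libraries differed by more than sampling noise, which does not show whether they came from separate cultures. The difference, replicate 2 minus replicate 1, was lower at higher GC content of the transcript, from a median of 0.06 in genes of lowest GC content to -0.06 in those of highest (5 bins, Spearman's rho -0.45 across genes, which are not independent replicates). Values that differ by less than these amounts are not told apart here.

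A few cell classes did differ between the libraries. Genes of oligodendrocyte precursors were higher in replicate 1: the proteoglycan gene Cspg4 (NG2) was at 31.1 and 13.03 CPM, the growth factor receptor gene Pdgfra at 89.7 and 51.6 CPM and the transcription factor gene Olig2 at 79.3 and 46.4 CPM. Sox10, a lineage factor named here after its values were seen because its mean is under 10 CPM, was at 12.5 and 3.82 CPM. Over the 10 detected genes of the oligodendrocyte list the median difference was -0.56 on the log2(CPM + 1) scale, against -0.01 over all detected genes and -0.01 over the 12 neuron markers. All 10 genes of dividing cells were also higher in replicate 1, with a median of -0.44, led by the proliferation antigen gene Mki67 at 48.1 and 30.4 CPM. Fibroblast and meningeal genes ran the other way, with 8 of 9 detected members higher in replicate 2 and a median of 0.49. The collagen gene Col3a1 was at 152 and 225 CPM and Col1a1 at 73.2 and 108 CPM. Pdgfra, which stands in both lists, was the exception.

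Beyond these lists, the protein-coding genes furthest apart with replicate 1 higher included the retinaldehyde-binding protein gene Rlbp1 at 29.98 and 16.7 CPM, the spindle gene Ckap2l at 13.7 and 7.91 CPM and Efs at 17.1 and 10.3 CPM. The matrix genes Loxl2 at 12.8 and 21.05 CPM, Postn at 8.72 and 13.6 CPM and Tgfbi at 24.2 and 36.8 CPM were higher in replicate 2, as were Creb3l2 at 16.8 and 25.6 CPM and Enpp1 at 11.4 and 17.3 CPM. The small RNA genes Mir6236 and mt-Tp were higher in replicate 2 too. The nuclear-retained RNA Malat1 was at 949 and 553 CPM, one of the largest gaps among abundant transcripts. With 1 library on each side, these differences carry no test.

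**Figure D2:**
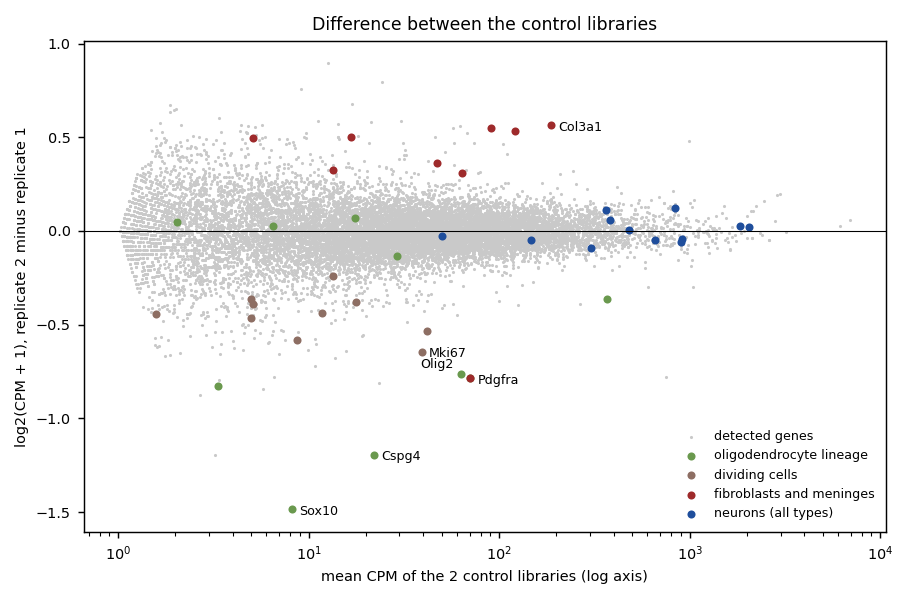
Difference between the control libraries on the log2(CPM + 1) scale (replicate 2 minus replicate 1) against the mean CPM of each detected gene (log axis), with members of 4 marker lists in colour. Of the oligodendrocyte genes 7 of 10, and of the dividing-cell genes all 10, lie under the line, and fibroblast genes other than Pdgfra, which is in both lists and drawn in the fibroblast colour, above it, while the 12 neuron markers stay between -0.09 and 0.12.

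The most abundant protein-coding transcripts of the nuclear genome were a mixture of secretory, cytoskeletal and glial genes. At the top stood Cpe, carboxypeptidase E, which trims neuropeptide precursors (chr8:64592542-64693054), at 4279 and 4157 TPM. It was followed by the actin-sequestering thymosin gene Tmsb4x at 4003 and 4062 TPM, the selenoprotein gene Selenow at 3986 and 3783 TPM and the imprinted gene Nnat (neuronatin) at 3842 and 3604 TPM. Calm3, a calmodulin gene, was at 3710 and 3625 TPM, and the secreted protease inhibitor gene Cst3 at 3590 and 3232 TPM.

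Genes of the growing axon and of microtubules filled much of the remaining top 25. They comprised the tubulin genes Tuba1a at 3090 and 2996, Tubb2a at 2605 and 2448 and Tubb3 at 2087 and 2029 TPM. The tubulin-binding gene Stmn3 was at 3034 and 2899 TPM. The growth cone genes Gap43 at 2559 and 2516 and Basp1 at 1782 and 1834 TPM, and the neuronal membrane glycoprotein gene Gpm6a at 2160 and 2202 TPM, belonged to the same range. The neuronal ubiquitin hydrolase gene Uchl1 was at 2082 and 2048 TPM.

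Lipid supply and proteostasis were also represented. The stearoyl-CoA desaturase gene Scd2 stood at 2455 and 2451 TPM and Hmgcs1, an enzyme of cholesterol synthesis, at 1893 and 2041 TPM. The lysosomal prosaposin gene Psap was at 2468 and 2378 TPM, the chaperone gene Hsp90ab1 at 2819 and 2758 TPM, the 14-3-3 gene Ywhae at 2045 and 2029 TPM and Ptms at 1922 and 1829 TPM. A glial pair in the top 25 was furthest apart between the libraries: the lipoprotein gene Apoe was at 2264 and 1842 TPM and the radial glia and astrocyte gene Fabp7 at 2232 and 1816 TPM, both higher in replicate 1.

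Counts were spread over many genes. The 10 most abundant genes held 3.44% and 3.57% of the counts, the 100 most abundant 15.4% and 15.5% and the 1000 most abundant 48.7% and 48.8%. Of the detected protein-coding genes, 3080 lay between 1 and 10 TPM, 7566 between 10 and 100 TPM, 1926 between 100 and 1000 TPM and 79 above that. No gene family dominated the libraries, and a level of 100 TPM already marks an abundant transcript.

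Protein-coding genes took up 98.4% of the counts in each library, and long noncoding RNAs 1.07% and 1.09%. Meg3, an imprinted noncoding RNA of the Dlk1-Dio3 locus (chr12:109541001-109571726), had the most counts of these, at 2674 and 3056 CPM. Its neighbour Rian was at 541 and 568 CPM and the uncharacterised 1700020I14Rik at 558 and 609.8 CPM. Xist, the RNA that coats the inactive X chromosome, was at 339 and 370.2 CPM, Miat at 325 and 331 CPM, Peg13 at 144 and 145 CPM and Tug1 at 128 and 140.5 CPM. Per length the order was not the same, with Rian at 124 and 131 TPM under Miat at 147 and 150 TPM. Malat1 is exceptional in its gap between the libraries, as given above. Neither the label nor the kit marks strand, so reads of overlapping antisense genes cannot be told apart from those of their partners, which concerns 30.4% of the exonic bases of Miat and 12.6% of those of Xist. The list by CPM also contained Cct6a, whose annotated type in this release is a processed transcript, at 306 and 314 CPM, and the pseudogene Gm13394 at 150.3 and 154 CPM, of whose sequence 94.7% of 50-base windows occur in another gene.

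Mitochondrially encoded genes took 2.59% of the counts in replicate 1 (exact Clopper-Pearson 95% interval 2.58 to 2.60%, counting error only) and 2.78% in replicate 2 (2.77 to 2.78%). Cytochrome b, mt-Cytb, was the gene with most counts in the tables, at 6771 and 7041 CPM, followed by the cytochrome oxidase subunit gene mt-Co1 at 6111 and 6229 CPM. The complex I genes mt-Nd1 at 12077 and 12568 TPM, mt-Nd2 at 8592 and 9449 TPM and mt-Nd6 at 6682 and 9333 TPM exceeded every nuclear gene per length. In contrast, mt-Co2, mt-Co3, mt-Atp6, mt-Nd3 and mt-Nd4l were at 0 counts in both libraries. Between 98.0% and 100% of the 50-base windows in these 5 transcripts also occur in another annotated gene. The low-lying mt-Atp8 was likewise at 0, with none of its windows shared. These zeros describe the count tables and are not read as an absence of the transcripts.

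Detected and not detected genes also differed in the sequence at their starts. In RefSeq windows of 300 bases (250 before and 50 after the annotated start, GRCm38.p6) of 16430 protein-coding genes, detected genes held a median of 21 CG dinucleotides, low genes 7 and genes not detected 2, against 14 over all. The motif TATAAA, on either strand, occurred in 8.39% of the windows of detected genes, in 27.0% of those not detected and in 14.3% of all. To show this contrast in letters, the stretch upstream of the start is given for 4 of the marker genes and for 3 genes at 0 counts, on the strand of the gene, in lower case with each CG in capitals, and ending before the first base of an annotated exon. Map2, at chr1:66175079-66175272 (plus strand), had 22 CG dinucleotides in 194 bases. Slc17a7, at chr7:45163671-45163920 (plus strand), had 9 in 250 bases, and Gad1, at chr2:70561879-70562041 (plus strand, inside the annotated gene span), 4 in 163 bases with 1 TATAAA match. Gfap, at chr11:102897201-102897450 (minus strand, inside the annotated gene span), is a detected gene with few, 2 in 250 bases. Of the genes at 0 counts, the dopamine receptor gene Drd3, at chr16:43761971-43762207 (plus strand, inside the annotated gene span), had 1 in 237 bases, and the interferon beta gene Ifnb1, at chr4:88522795-88523044 (minus strand), 1 in 250 bases with 2 TATAAA matches. The vasopressin gene Avp, at chr2:130582589-130582838 (minus strand), also at 0 counts, had 7 in 250 bases, more per base than Gad1, so that the contrast holds for the medians and not for each gene. The windows of Snap25 and Slc1a2 are not shown. A match of these letters is a description of the window and not of a factor or of a cause of the level.
Map2: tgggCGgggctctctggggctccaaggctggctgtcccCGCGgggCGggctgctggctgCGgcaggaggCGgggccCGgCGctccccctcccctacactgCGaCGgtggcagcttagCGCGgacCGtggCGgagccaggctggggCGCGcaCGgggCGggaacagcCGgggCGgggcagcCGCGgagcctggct
Slc17a7: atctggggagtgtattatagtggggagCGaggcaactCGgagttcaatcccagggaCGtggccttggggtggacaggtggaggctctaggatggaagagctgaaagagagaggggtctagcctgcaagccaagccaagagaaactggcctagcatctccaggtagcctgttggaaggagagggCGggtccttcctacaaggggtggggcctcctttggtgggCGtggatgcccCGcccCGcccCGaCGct
Gad1: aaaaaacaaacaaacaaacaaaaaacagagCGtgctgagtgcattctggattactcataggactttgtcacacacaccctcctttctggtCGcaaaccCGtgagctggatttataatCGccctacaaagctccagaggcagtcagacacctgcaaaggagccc
Gfap: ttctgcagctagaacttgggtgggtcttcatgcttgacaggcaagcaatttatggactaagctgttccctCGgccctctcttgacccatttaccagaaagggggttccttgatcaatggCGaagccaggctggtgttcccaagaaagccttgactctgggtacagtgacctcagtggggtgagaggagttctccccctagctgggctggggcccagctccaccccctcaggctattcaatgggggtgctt
Drd3: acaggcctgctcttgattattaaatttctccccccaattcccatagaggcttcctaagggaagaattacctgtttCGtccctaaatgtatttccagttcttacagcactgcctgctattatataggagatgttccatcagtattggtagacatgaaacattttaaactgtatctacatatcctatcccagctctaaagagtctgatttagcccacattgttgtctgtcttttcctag
Ifnb1: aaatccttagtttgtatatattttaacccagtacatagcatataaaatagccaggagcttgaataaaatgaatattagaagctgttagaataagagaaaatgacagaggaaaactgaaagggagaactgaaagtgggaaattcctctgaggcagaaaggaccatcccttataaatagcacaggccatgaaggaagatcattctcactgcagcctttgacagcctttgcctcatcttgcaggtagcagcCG
Avp: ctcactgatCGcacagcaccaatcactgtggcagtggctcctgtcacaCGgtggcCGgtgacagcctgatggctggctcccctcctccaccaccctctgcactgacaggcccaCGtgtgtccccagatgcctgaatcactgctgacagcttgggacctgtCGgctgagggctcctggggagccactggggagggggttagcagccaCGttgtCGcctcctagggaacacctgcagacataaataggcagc

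Markers of neurons had the highest median of the cell classes, and glutamatergic genes stood above GABAergic ones. All 12 general neuron markers were detected, from Tubb3 at 2087 and 2029 TPM, Stmn2 at 1368 and 1397 TPM, Syn1 at 855 and 829.8 TPM and Syp at 737 and 709 TPM down to the RNA-binding protein gene Elavl4 at 39.3 and 38.7 TPM. Dcx, a microtubule protein of young neurons, was at 116 and 126 TPM, and Rbfox3, which encodes the nuclear antigen NeuN, at 107 and 104 TPM. All 9 excitatory markers were detected. They were led by Camk2a, the calcium/calmodulin kinase of postsynaptic densities, at 1203 and 1176 TPM, and included the pyramidal cell factor gene Neurod6 at 776 and 785 TPM and neurogranin, Nrgn, at 489.7 and 509 TPM.

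Inhibitory neurons were represented by 10 of 10 markers, among them Gad2 at 84.4 and 86.97 TPM and the vesicular GABA transporter gene Slc32a1 at 66.9 and 63.8 TPM. Lhx6, a factor of interneurons from the medial ganglionic eminence, was at 33.4 and 33.1 TPM, and Dlx6 was lowest at 2.26 and 1.87 TPM. The sum of Slc17a7 and Slc17a6 over that of Gad1 and Gad2 was 4.55 and 4.33 in TPM (4.44 ± 0.150, SD, n = 2), and Slc17a7 over Gad1 alone was 7.10. In bulk RNA, fewer cells of a type and less RNA per cell cannot be told apart, so this is a ratio of transcripts and not of cells.

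Among the 14 interneuron subtype genes 13 were detected. The calcium buffer gene Calb2 (calretinin) was at 929.7 and 916 TPM, the peptide genes Cck at 428 and 402 TPM and Sst at 232 and 204 TPM, and the nitric oxide synthase gene Nos1 at 47.6 and 47.4 TPM. Npy, another interneuron peptide, was at 51.6 and 37.01 TPM, and Vip was far lower at 7.45 and 6.87 TPM. Pvalb, the buffer of fast-spiking basket cells, was the 1 member short of the threshold, at 12 and 13 counts. Calb2 and Cck are also made by some excitatory cells, so their levels cannot be assigned to interneurons in bulk RNA.

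All 18 genes that mark hippocampal subfields were detected. The synaptic pentraxin gene Nptx1 was at 356 and 346 TPM, Bhlhe22 at 271 and 276 TPM and Cpne4 at 149 and 166 TPM. Of dentate granule cell genes, the lowest values were those of Prox1 at 17.9 and 17.8 TPM and Dsp at 4.34 and 4.35 TPM, while C1ql2 was at 45.3 and 41.7 TPM. The CA1 gene Wfs1 was at 122 and 124 TPM and the CA2 gene Amigo2 at 26.97 and 27.1 TPM. Genes of every subfield were thus above the detection threshold, dentate and CA fields alike. Cajal-Retzius cells, transient neurons of the hippocampal fissure, were represented by 2 of 7 markers, Reln at 25.7 and 26.2 TPM and Ndnf at 5.59 and 5.76 TPM, which interneurons also express. Their defining factor Trp73 was at 15 and 17 counts and Lhx5 at 3 and 2.

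Astrocyte markers were detected for 13 of 14 genes, with a list median of 17.6% and 16.8% of that of the neuron list in TPM. The ratio of these lists, 0.172 on average, was 0.287 in CPM and 0.598 with means in place of medians. In addition to Fabp7, the metabolic enzyme gene Aldoc was at 789 and 705 TPM, and Slc1a3, the glutamate transporter GLAST, at 442 and 431 TPM. The water channel gene Aqp4 was at 86.8 and 92.99 TPM and the folate enzyme gene Aldh1l1 at 91.99 and 87.2 TPM. Gjb6 (connexin 30), a gap junction gene of mature astrocytes, alone fell short, at 22 and 16 counts, whereas the other astrocyte connexin gene, Gja1, was at 54.03 and 56.5 TPM. Sox9 was at 47.3 and 34.97 TPM, higher in replicate 1.

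Radial glia and progenitor genes overlapped with this picture: 11 of 12 were detected, led by the filament gene Vim at 237 and 227 TPM and by Hopx at 133 and 132 TPM, with Sox2 at 75.4 and 63.1 TPM and Nes (nestin) at 73.8 and 56.9 TPM. Eomes, a factor of intermediate neuronal progenitors, was low at 2 and 9 counts. All 10 genes of dividing cells were detected, from Pcna at 25.4 and 21.3 TPM, Top2a at 23.003 and 15.8 TPM, Mki67 at 20.1 and 12.7 TPM and Ccna2 at 14.04 and 10.1 TPM to Ccnb1 at 1.97 and 1.19 TPM. Their list median was 2.08% and 1.40% of the neuron list's.

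In the oligodendrocyte lineage, some precursor genes stood well above the myelin genes and others did not. Olig1 was at 809 and 629.8 TPM, Olig2 at 131 and 77.1 TPM and Pdgfra at 37.5 and 21.7 TPM, and Cnp, an enzyme of myelin that is also made earlier, at 35.1 and 31.97 TPM. Of myelin genes, Mbp was at 8.51 and 8.96 TPM and Mog at 4.87 and 5.14 TPM. Sox10 was at 17.2 and 5.27 TPM and the precursor gene Cspg4 at 10.9 and 4.59 TPM. Both lay above Mbp in replicate 1 and under it in replicate 2. Mag was at 0 counts in both libraries, and Mobp at 5 and 0 counts. Gpr17, a receptor of committed precursors, was at 63 and 13 counts. In all, 10 of 14 members were detected. Among those given here in TPM, Sox10 and Cspg4 had the largest fold differences between the libraries.

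Microglia, vessels and blood left little trace. Of 14 microglia and macrophage genes 5 were detected, among them the calcium-binding protein gene Aif1 at 25.1 and 25.2 TPM, the lysosomal gene Cd68 at 10.5 and 14.4 TPM, Tmem119 at 4.05 and 5.33 TPM and the receptor gene Csf1r at 2.87 and 2.66 TPM. The other 9 members of the list were low, among them Cx3cr1 at 1 and 4 counts, P2ry12 at 3 and 7 and the complement gene C1qa at 6 and 7. Of 10 endothelial genes only the VEGF receptor gene Kdr was detected, at 5.75 and 6.61 TPM, while the tight junction gene Cldn5 was at 2 and 1 counts and Ly6c1 at 0 and 1. No blood gene of 10 was detected, and the globin genes Hbb-bt, Hbb-y and Hba-x were at 0 in both libraries. Mural cell genes were detected for 5 of 10, led by Pdgfrb at 12.6 and 13.7 TPM, with Kcnj8 at 1 and 0 counts and Des at 2 and 3.

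Fibroblast and meningeal genes were a further non-neuronal component, with 9 of 10 detected. Col3a1 was at 64.8 and 96.4 TPM, Col1a1 at 46.8 and 69.04 TPM, Col1a2 at 33.3 and 48.6 TPM and the proteoglycan gene Dcn at 29.5 and 38.1 TPM, each higher in replicate 2. The list median was 5.21% and 5.56% of the neuron list's. Among ependymal and choroid plexus genes 4 of 10 were detected, transthyretin, Ttr, at 31.2 and 20.6 TPM and the ciliogenesis factor gene Foxj1 at 11.9 and 11.3 TPM among them, and Kcnj13, Krt18 and Ccdc153 were not.

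Marker genes of neurons that reach the hippocampus from elsewhere were mostly under the detection threshold, and those of other regions were detected in part. Of 13 genes of monoaminergic and cholinergic neurons 2 were detected, the vesicular monoamine transporter gene Slc18a2 at 1.79 and 2.06 TPM and the dopamine transporter gene Slc6a3 at 2.09 and 1.66 TPM. Chat, which makes acetylcholine, was at 0 in both libraries, Th at 9 and 3 counts and Slc6a4, the serotonin transporter gene, at 4 and 8. The list for other brain regions had 10 of 20 members detected, among them Calb1 at 44.5 and 46.5 TPM, which the hippocampus expresses as well, Cbln1 at 20.5 and 23.2 TPM, the striatal gene Ppp1r1b at 16.1 and 14.7 TPM and the adenosine receptor gene Adora2a at 6.98 and 8.29 TPM. Cerebellar Gabra6 and hindbrain Hoxb3 and Hoxa5 were not detected.

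The family lists hold mostly genes of neuronal function, beside lists such as glycolysis, imprinted, sex-linked, apolipoprotein and interferon genes. Of 791 distinct members of 39 family lists, 591 were detected (74.7%, against 58.9% for all protein-coding genes), 115 were low and 85 were not detected. The share ranged from all members of the AMPA receptor, kainate receptor, postsynaptic scaffold, activity-regulated and forebrain factor lists to 2 of 22 factors of more caudal regions. The lists were chosen with earlier results of these libraries known, so their shares are a description and support nothing further.

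**Figure D3:**
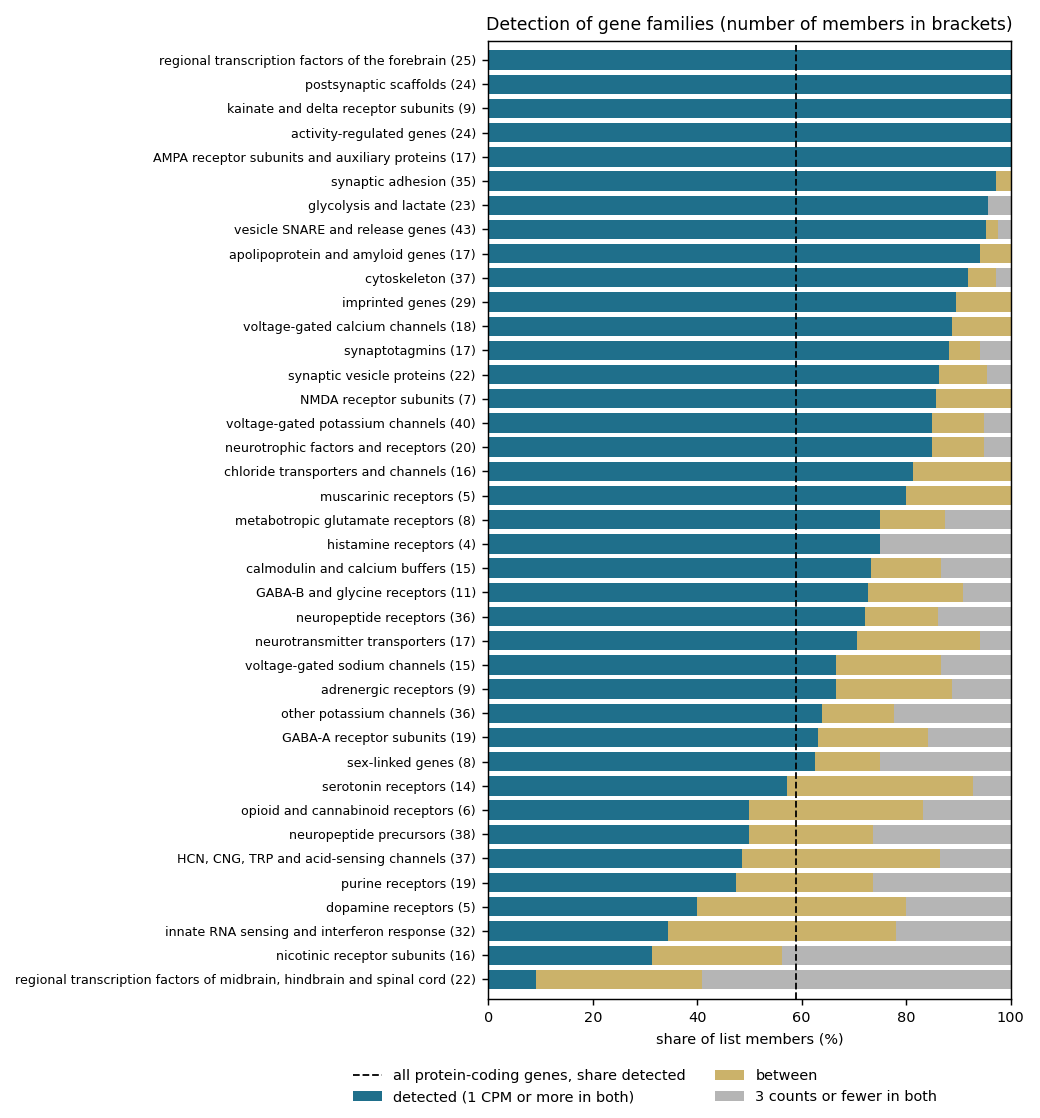
Share of the members of each family list (percent, number of members in brackets) that were detected, low or at 3 counts or fewer in both control libraries, with the dashed line at the 58.9% of all protein-coding genes detected. Release, postsynaptic, adhesion and forebrain lists lie right of the line, and nicotinic, interferon and caudal factor lists left of it.

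The machinery of transmitter release was almost complete. Of 43 SNARE and release genes 41 were detected, led by the complexin genes Cplx2 at 1518 and 1469 TPM and Cplx1 at 1202 and 1195 TPM, the vesicle SNARE gene Vamp2 at 1190 and 1239 TPM and the vesicle GTPase gene Rab3a at 917 and 885 TPM. The priming factor gene Unc13a was at 179 and 177 TPM. The complexins of ribbon synapses fell short of detection, with Cplx4 at 1 and 0 counts and Cplx3 at 10 and 18. Unc13c, a cerebellar priming factor, was the lowest detected member per length, at 1.31 and 1.57 TPM (2.75 and 3.27 CPM).

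Vesicle proteins showed the same profile, with 19 of 22 detected. Slc17a7, Syn1 and Syp were followed by Syngr1 at 621 and 616 TPM, and the vesicle glycoprotein gene Sv2a at 433 and 435 TPM exceeded Sv2b at 351 and 358 TPM. Among vesicular glutamate transporters, Slc17a7 made up 97.8% and 97.5% of the summed TPM, Slc17a6 (VGLUT2) was at 20.3 and 22.1 TPM and Slc17a8 (VGLUT3) at 1.89 and 1.76 TPM. The vesicular acetylcholine transporter gene Slc18a3 was not detected, at 0 and 2 counts. Of 17 synaptotagmins, the calcium sensors of release, 15 were detected. Syt11, which does not bind calcium, was highest at 759.9 and 726 TPM, followed by the fast sensor gene Syt1 at 482 and 493 TPM, Syt5 at 291 and 310.1 TPM and Syt4 at 191 and 213 TPM. Syt2, the fast sensor of hindbrain synapses, was at 2.66 and 3.31 TPM and Syt8 at 0 counts.

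AMPA receptors, which carry most fast excitation, were detected with all 17 subunit and auxiliary genes. Gria1 was highest among the pore subunits at 564 and 570.4 TPM and took 66.6% and 65.7% of the summed TPM of the 4 subunit genes. Gria2, whose edited product makes the channel impermeable to calcium, was at 208 and 219 TPM, or 24.5% and 25.2%. Gria4 at 40.2 and 43.8 TPM and Gria3 at 34.6 and 34.97 TPM shared the rest. Of auxiliary genes, Cnih2 was far above the others at 1417 and 1372 TPM, and Cacng7 was at 198 and 196 TPM. Cacng8, the hippocampal TARP gene, was at 109 and 101 TPM and Cacng2 (stargazin) at 34.8 and 37.5 TPM.

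NMDA receptors combine an obligatory subunit with partners that change as neurons mature. Grin1 was at 141 and 136 TPM and Grin2b, the subunit prevalent in young neurons, at 128 and 140.4 TPM, whereas Grin2a, which gains with maturation, was at 23.7 and 28.5 TPM. How far Grin1 and Grin2b lay apart depended on the length used, and with that of the longest transcript their means were 242 and 107 TPM in place of 138 and 134. The ratio of Grin2b to Grin2a was 5.37 and 4.93 in TPM (5.15 ± 0.316, SD, n = 2). Grin3a, another juvenile subunit, was at 18.02 and 19.5 TPM, and Grin3b was low at 6 and 11 counts. All 9 kainate and delta receptor genes were detected. The high-affinity kainate subunit gene Grik5 was at 191 and 190.2 TPM, Grid1 at 75.6 and 72.8 TPM, the CA3-enriched Grik4 at 61.7 and 58.3 TPM and the auxiliary gene Neto2 at 33.9 and 36.6 TPM.

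Of 8 metabotropic glutamate receptors 6 were detected. Grm5, coupled to phospholipase C, was at 132 and 142 TPM and exceeded the inhibitory receptor genes Grm3 at 62.4 and 66.5 TPM and Grm7 at 57.7 and 56.1 TPM. Grm6, the receptor of retinal bipolar cells, was at 3 and 2 counts, and Grm8 was low at 25 and 42.

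**Figure D4:**
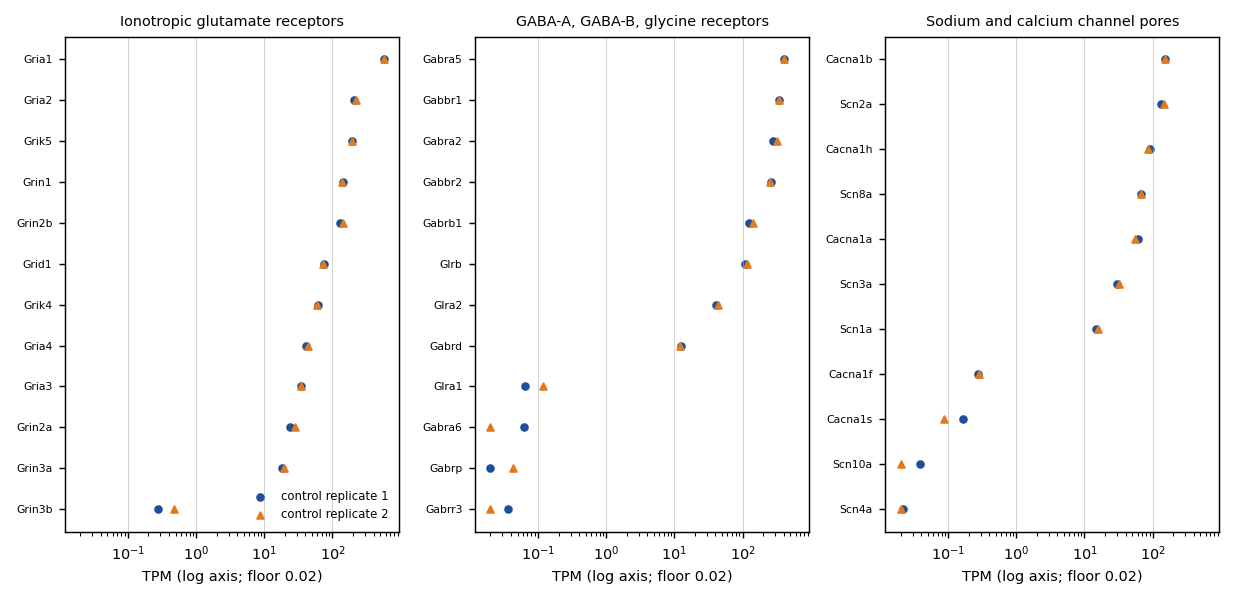
Levels in TPM (log axis) of ionotropic glutamate receptor, inhibitory receptor and sodium and calcium channel pore genes named in the text in control replicate 1 (circles) and replicate 2 (triangles), ordered by mean level. Gria1, Gabra5 and Cacna1b head their panels, and genes such as Gabra6, Scn4a and Scn10a lie near the floor of 0.02 at which smaller values are drawn.

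GABA-A receptors were represented by 12 of 19 subunit genes. Gabra5, the extrasynaptic alpha subunit typical of hippocampus, was at 399 and 410.4 TPM and took 49.0% and 47.0% of the summed TPM of the alpha subunits. Gabra2 followed at 281 and 316 TPM. The beta subunit gene Gabrb1 was at 123 and 142 TPM, and the dentate delta subunit gene Gabrd at 12.3 and 11.98 TPM. Not detected were the cerebellar Gabra6, Gabrp and the retinal Gabrr3.

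GABA-B receptors need both of their subunits, and Gabbr1 at 342 and 346 TPM and Gabbr2 at 257 and 255.9 TPM were each abundant. Glycine receptors were present in their fetal form, with the beta subunit gene Glrb at 107 and 117 TPM and the fetal alpha subunit gene Glra2 at 41.4 and 43.7 TPM. The spinal alpha subunit gene Glra1 was at 1 and 2 counts. Together 8 of 11 genes of this list were detected.

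Receptors for acetylcholine and monoamines varied in their share of detected genes, from the nicotinic and dopamine lists under the background of 58.9% to the muscarinic, histamine and adrenergic lists above it. Nicotinic subunits were detected for 5 of 16 genes, Chrnb2 at 50.6 and 51.8 TPM, Chrna7 at 50.1 and 45.7 TPM, Chrna4 at 31.4 and 32.1 TPM, Chrna5 at 4.82 and 4.27 TPM and Chrnb1 at 3.10 and 4.02 TPM. The first 3 are the subunits of the main brain receptors. Chrna5 is known from the habenula and Chrnb1 from muscle. Of the 16 genes 4 were low and 7 were not detected. Among the latter, Chrnb4 was at 1 and 3 counts, Chrna6 at 2 and 3, Chrnd at 2 and 0 and Chrne at 1 and 0, and Chrna9 and Chrng were at 0. Muscarinic receptors were detected for 4 of 5 genes, headed by Chrm1 at 103 and 98.9 TPM, with Chrm4 at 34.9 and 34.2 TPM and Chrm3 at 26.3 and 25.8 TPM, and Chrm2 was low at 14 and 29 counts.

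Dopamine receptors were detected for 2 of 5 genes. Drd1 was at 2.80 and 3.80 TPM and Drd2 at 1.99 and 1.80 TPM, and Drd3 was at 0 counts. Serotonin receptors were detected for 8 of 14 genes: the inhibitory Htr1a at 28.8 and 30.1 TPM, Htr2c at 24.3 and 27.7 TPM, and Htr7 at 17.2 and 18.7 and Htr6 at 16.3 and 13.2 TPM, both of which raise cyclic AMP. Adrenergic receptors were detected for 6 of 9 genes, with Adra2a at 32.4 and 31.9 TPM and Adra1d at 25.2 and 23.6 TPM ahead of Adrb1 at 8.54 and 9.33 TPM. Of 4 histamine receptors the presynaptic Hrh3 was highest at 23.7 and 22.7 TPM, and the immune receptor gene Hrh4 was at 0.

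The cannabinoid receptor gene Cnr1, which acts at presynaptic terminals, was among the most abundant of all these receptors at 185 and 201 TPM. The nociceptin receptor gene Oprl1 was at 71.7 and 71.6 TPM and Oprd1 at 3.48 and 3.32 TPM. Mu and kappa opioid receptors were near 0, Oprm1 at 5 and 3 counts and Oprk1 at 3 and 0. Purine receptors were detected for 9 of 19 genes, with the adenosine A1 receptor gene Adora1 at 214 and 194 TPM, followed by Adora2b at 30.99 and 24.8 TPM and P2rx6 at 10.5 and 9.80 TPM. Adora3, P2ry10 and P2ry13, receptors of immune cells, were at 0 in both libraries.

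Neuropeptide precursors were detected for 19 of 38 genes, a share under the background of 58.9%. Granins were highest, with Scg2 at 452 and 467 TPM and Chgb at 343 and 336 TPM, beside Cck and the activity-dependent Vgf at 258 and 246 TPM. Penk, the enkephalin precursor, was at 11.7 and 13.5 TPM and the dynorphin precursor gene Pdyn, which granule cells use, at 1.65 and 2.19 TPM. Hypothalamic peptides were not detected or low. Avp was at 0 counts, Oxt at 1 and 0, Hcrt at 1 and 1, Pmch at 0 and 1 and Crh at 1 and 2, and among the low genes Pomc was at 21 and 21, Agrp at 19 and 11, Ghrh at 10 and 3 and Gnrh1 at 7 and 3. Peptide receptors, by contrast, were detected for 26 of 36 genes. The PACAP receptor gene Adcyap1r1 was at 168 and 159 TPM, the somatostatin receptor genes Sstr2 at 88.5 and 82.9 TPM and Sstr1 at 47.2 and 49.02 TPM, and the neurotensin receptor gene Ntsr1 at 53.4 and 54.2 TPM. Mc3r was at 0, and Avpr2, Galr1, Tacr2 and Sstr5 were at 3 counts or fewer.

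Voltage-gated sodium channels had 10 of 15 genes detected. The beta subunit genes Scn3b at 160.1 and 165 TPM and Scn2b at 117 and 124 TPM stood beside the pore gene Scn2a at 133 and 144 TPM. Of the 4 brain pore genes, Scn2a took 54.3% and 55.5% of the summed TPM, Scn8a 27.6% and 26.2%, the fetal Scn3a 12.2% and 12.2%, and Scn1a, which interneurons use, 5.99% and 6.10%. The sensory channel gene Scn10a and the muscle channel gene Scn4a were not detected, at 2 and 1 and 1 and 0 counts.

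Calcium channels were detected for 16 of 18 genes. The N-type pore gene Cacna1b was at 154 and 151 TPM, above the P/Q-type Cacna1a at 60.3 and 55.99 TPM, and the T-type Cacna1h was at 91.2 and 86.6 TPM. The cytosolic beta subunit genes Cacnb3 at 152 and 149 TPM and Cacnb1 at 118 and 113 TPM were of like height. The retinal Cacna1f and the muscle Cacna1s were low, at 16 and 18 and 7 and 4 counts.

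Potassium channels formed the broadest set, with 34 of 40 voltage-gated and 23 of 36 other genes detected. In the first set, the M-current gene Kcnq5 was at 117 and 119.6 TPM, ahead of the axonal Kcna1 at 66.6 and 67.4 TPM and the A-type Kcnd2 at 63.6 and 64.4 TPM. In the second, the astrocyte channel gene Kcnj10 (Kir4.1) was at 128 and 106 TPM, the leak channel gene Kcnk1 at 110.4 and 114 TPM, Kcnj4 at 108 and 112 TPM and the GIRK channel gene Kcnj3 at 50.6 and 54.7 TPM. Kcnj10 lay higher in replicate 1, while of the 13 detected astrocyte markers 7 were higher in replicate 1 and 6 in replicate 2. Kcnv2, Kcna10, Kcnj1 and Kcnk16, channels of retina, kidney and other organs, were at 3 counts or fewer.

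Of the pacemaker, cyclic nucleotide, TRP and acid-sensing channels, 18 of 37 were detected. Hcn2 was at 104 and 103 TPM and Hcn3 at 57.3 and 54.2 TPM. The acid-sensing gene Asic2 was at 92.6 and 98.4 TPM and Asic1 at 56.2 and 54.9 TPM. Of photoreceptor channel genes, Cnga1 and Cngb3 were at 0, while Cngb1 at 21 and 18 counts and Cnga3 at 10 and 8 were low. Trpv5 and Asic5 were not detected. Trpc2 was not detected either, but its sequence is largely shared with another annotated gene. Its count is therefore not read as an absence of the transcript.

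The chloride exporter KCC2, encoded by Slc12a5 (chr2:164960802-164999731), was at 244 and 239.6 TPM, and the importer NKCC1, encoded by Slc12a2, at 13.4 and 14.8 TPM. Their ratio was 18.1 and 16.1 in TPM (17.1 ± 1.41, SD, n = 2). KCC2 is the transporter that makes GABA inhibitory as neurons mature, while NKCC1 is used by glia as well. Of chloride channels and exchangers, the endosomal Clcn4 at 134 and 142 TPM, Clcn6 at 138 and 136 TPM and Clcn3 at 59.2 and 62.3 TPM were highest, and 13 of 16 genes of the list were detected. Plasma membrane transmitter transporters were detected for 12 of 17 genes, with Slc1a4 at 295 and 277 TPM behind Slc1a2 and Slc1a3, and the noradrenaline transporter gene Slc6a2 was at 1 and 3 counts.

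Postsynaptic scaffolds were detected with all 24 genes. Camk2b was at 543 and 543 TPM, Dlg4, which encodes PSD-95, at 209 and 199.97 TPM, and gephyrin, Gphn, the scaffold of inhibitory synapses, at 179 and 175 TPM. The lowest member, Camk2d, was at 17.7 and 18.95 TPM. Synaptic adhesion genes were detected for 34 of 35, led by Cadm4 at 510.1 and 469 TPM and Cadm3 at 327 and 326 TPM. Nlgn2, the neuroligin of inhibitory synapses, was at 279.7 and 282 TPM, the receptor phosphatase gene Ptprs at 237 and 228 TPM, and the neurexin gene Nrxn2 at 221 and 203 TPM.

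The clustered protocadherins, which give single neurons a surface identity, were each low but nearly all present. Of 22 beta genes 22 were detected, from 1.64 to 23.5 TPM on average, with Pcdhb9 at 24.2 and 22.8 TPM and Pcdhb7 at 22.5 and 19.8 TPM. Of 14 alpha genes 11, and of 22 gamma genes 20, were detected, with Pcdhac2 at 52.4 and 56.2 TPM and Pcdhgc3 at 40.5 and 36.1 TPM at the head. Alpha and gamma genes share their last exons, and 48.2% and 76.3% of the windows in these latter transcripts occur in other genes, so how reads were divided among them is uncertain.

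Cytoskeletal genes were detected for 34 of 37, among them the neuronal tubulins already named, Tubb5 at 1806 and 1698 TPM, Actb at 1691 and 1489 TPM, and the axonal tau gene Mapt at 788 and 798 TPM. The megakaryocyte tubulin gene Tubb1 was not detected, at 1 and 0 counts. The calcium sensor genes Vsnl1 at 683 and 678 TPM and Hpca (hippocalcin) at 667 and 640.4 TPM were abundant, and the epidermal Calm4 and Calml3 were at 0.

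Trophic factors and their receptors were detected for 17 of 20 genes. Vegfa was at 317 and 326 TPM, the sorting receptor gene Sort1 at 183 and 183 TPM, Ntrk2, the receptor of BDNF, at 139 and 137 TPM and Ntrk3 at 61.05 and 61.9 TPM. Bdnf was at 39.5 and 41.6 TPM. Cntf was not detected, at 2 and 2 counts. Igf2 was at 51.8 and 64.8 TPM, higher in replicate 2, with 76.0% of its windows shared with another annotated gene.

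All 24 activity-regulated genes were detected. The nuclear receptor gene Nr4a3 was at 207 and 207 TPM, Jun at 122 and 116 TPM, Jund at 90.8 and 97.1 TPM and Rheb at 66.1 and 63.8 TPM. The immediate early gene Egr1 was at 38.8 and 34.2 TPM, while Fosb at 1.87 and 1.70 TPM and Egr2 at 1.40 and 1.56 TPM were lowest. The members thus spanned a range from near the threshold to well above the median of detected genes.

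Transcription factors of the forebrain were present and those of caudal regions nearly absent. All 25 forebrain factors were detected, with Neurod6, Zbtb18 at 362 and 368 TPM, Zbtb20 at 129.7 and 144 TPM, which specifies hippocampal identity, and Tcf4 at 122 and 135 TPM highest. Lhx2, needed for the hippocampal primordium, was at 125 and 121 TPM. Of 22 factors of midbrain, hindbrain and spinal cord 2 were detected, Lmx1a at 2.58 and 2.45 TPM and En1 at 1.87 and 2.02 TPM. Pitx3, Foxa2 and Atoh1 were at 0 counts. None of 39 Hox genes was detected, 31 of them being at 0 in both libraries, and Hoxb13 had most counts, at 8 and 12.

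Of 32 genes of RNA sensing and the interferon response 11 were detected, a share of 34.4% that lies under the background of 58.9%. The interferon receptor gene Ifnar1 was at 49.3 and 54.1 TPM, Stat2 at 36.3 and 37.6 TPM, Irf3 at 19.5 and 17.6 TPM and Ifnar2 at 12.8 and 13.4 TPM, and the endosomal double-stranded RNA receptor gene Tlr3 at 4.07 and 4.82 TPM. The inducible gene Ifit2 was detected at 7.01 and 6.61 TPM, while Isg15 was at 7 and 8 counts, Ifit1 at 5 and 5, Mx1 at 18 and 18 and Cxcl10 at 8 and 6. Ifnb1, Oas1a, Oasl1 and Zbp1 were at 0, and Tlr7 was at 1 and 3. No untreated library is at hand to show what the particles themselves changed.

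RNA of both X inactivation and the Y chromosome was present in each library. Xist was at 79.1 and 86.8 TPM, and the Y-linked genes Eif2s3y at 42.5 and 45.5 TPM, Ddx3y at 28.7 and 32.3 TPM, Kdm5d at 9.19 and 10.3 TPM and Uty at 6.25 and 6.95 TPM. The testis-determining gene Sry and Zfy1 were at 0. Imprinted genes were detected for 26 of 29. Besides Nnat and Meg3, Snrpn was at 591 and 588 TPM and Ndn (necdin) at 432 and 435 TPM, both of the Prader-Willi region. H19 was low at 18 and 25 counts. Genes of amyloid, synuclein and apolipoproteins were detected for 16 of 17, with Aplp1 at 1782 and 1685 TPM, the prion protein gene Prnp at 1097 and 1094 TPM and App at 565 and 559 TPM. Sncg, the synuclein of peripheral neurons, was at 6 and 3 counts.

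Glycolytic genes were detected for 22 of 23, with Aldoa at 1602 and 1614 TPM, the lactate dehydrogenase gene Ldha at 947 and 980.1 TPM and Tpi1 at 833 and 845 TPM. The liver pyruvate kinase gene Pklr was at 2 and 3 counts. Gapdh, usually among the most abundant mRNAs of any cell, was at only 16.8 and 18.3 TPM, and the cytoplasmic actin gene Actg1 at 4.80 and 3.72 TPM (both singled out after their values were seen). These genes have many processed copies: 27.8% of the 50-base windows of Gapdh and 56.7% of those of Actg1 occur in another annotated gene. How reads that map to several places were counted is not given in the sources used here.

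Cytosolic ribosomal protein genes, a family rich in such copies, were detected for 75 of 88, with Rplp1 at 1195 and 1070 TPM and Rpl4 at 874 and 858 TPM highest. Members with under 20% of windows shared had a median of 39.0 and 36.4 TPM (29 genes). The 33 genes between 20% and 50% had 30.7 and 29.4 TPM, and the 26 genes at 50% or more had 11.9 and 12.2 TPM. The cytoskeletal and glycolytic lists did not show the same order of the 3 bins. The medians of cytoskeletal genes were 341 and 332, 494 and 488, and 93.1 and 86.7 TPM in the same 3 bins, of 26, 6 and 5 genes, and those of glycolytic genes 245 and 249.96, 32.6 and 31.1, and 82.5 and 86.7 TPM, of 16, 5 and 2 genes. Rplp1, with 60.0% of windows shared, was itself the highest ribosomal gene. Whether sharing moved the level of a gene such as Tuba1b, at 93.1 and 86.7 TPM with 83.1% shared, was not tested.

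**Figure D5:**
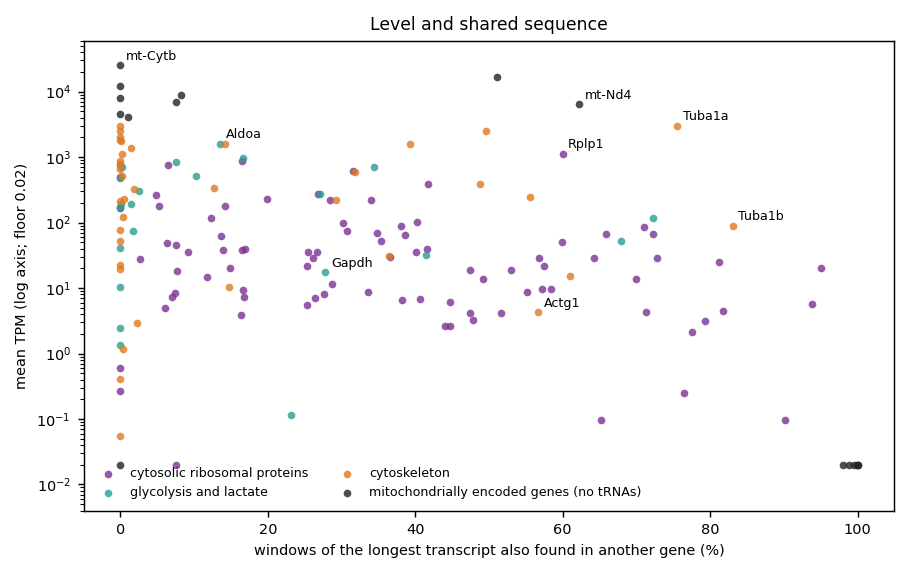
Mean TPM (log axis, values under 0.02 drawn at 0.02) against the percentage of 50-base windows of the longest transcript that occur in another annotated gene, each point a gene of 4 lists. Mitochondrially encoded genes with nearly all windows shared lie at the floor, and Gapdh and Actg1 lie at 17.5 and 4.26 TPM.

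Sensory receptor families closed the list of what was not seen. Of 1077 olfactory receptor genes 1000 were at 0 counts in both libraries and 1 was detected, Olfr287 at 4.49 and 4.14 TPM, with 53.4% of its windows shared. None of 292 vomeronasal receptors and none of 15 trace amine receptors was detected. Of 38 taste receptors the amino acid receptor gene Tas1r1 was detected, at 8.86 and 8.22 TPM, and of 8 opsins Opn3, which is expressed in brain, at 3.62 and 4.05 TPM. Keratins were detected for 5 of 50 genes, led by Krt222 at 17.7 and 19.3 TPM and Krt10 at 14.3 and 13.4 TPM.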

How the data were processed

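Counts were taken from the 2 deposited tables of the control libraries, which the authors made as raw counts per Ensembl gene without normalization. The submitters' processing notes name the build mm10 and the tools STAR 2.5.2b, Subread 1.5.1 with featureCounts, and FastQC 0.11.5. The annotation release, the strand setting and the treatment of reads mapping to several places are not given in the sources used here. Genes were matched by identifier to GENCODE M21 (48349 of 48709; the others held 0.0395% and 0.0413% of the counts). CPM used the total gene count of a library, and TPM the length of all exonic bases. Shared windows are the 50-base windows of the longest transcript found, on either strand, in a transcript of another annotated gene. Dispersion was estimated with edgeR 4.0.16 in R 4.3.3 as 1 group with TMM, for genes with 10 counts or more in both libraries, a step tested on simulated data. No test between groups was made.

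Members and lists were chosen with earlier results of these data known. The text names the 6 marker genes, the 25 nuclear coding genes of highest TPM, the 10 noncoding genes of highest CPM, the 4 detected members of highest TPM (2 for families found by name pattern) and up to 6 members not detected per list, both members of each ratio, and the 8 genes furthest apart between the libraries in each direction. Other genes named were chosen after their values were seen, and some genes that these rules take are not reported here. The list symbols Vamp7, Kiss1 and Galr3 matched no gene of the tables and were left out.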

Additional observations from a re-analysis of the deposited data

How the results depend on the processing

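With lengths of the longest transcript in place of all exonic bases, the ratio of Grin2b to Grin2a was 4.34, of Slc12a5 to Slc12a2 12.6 and of astrocyte to neuron medians 0.195 (main values 5.15, 17.1 and 0.172). With no length (CPM) they were 7.13, 11.7 and 0.287, and the glutamate to GABA ratio was 3.44 in place of 4.44. That ratio was 7.10 for Slc17a7 over Gad1 alone, and the astrocyte to neuron ratio 0.598 with means in place of medians. The 100 most abundant nuclear genes held 13.99% of nuclear counts (main 15.5%), and the mitochondrial share without its 2 ribosomal RNAs was 2.43% (main 2.68%). Leaving out 1 library gave 4.93 to 5.37, 16.1 to 18.1, 0.168 to 0.176, 4.33 to 4.55, 15.4 to 15.5% and 2.59 to 2.78% for these results in the same order. Detected genes numbered 13734 and, under 0.5 CPM, 5 CPM, 1 TPM, TMM scaling or 1 library, 11162 to 15398. Detected family genes numbered 591, and 515 to 626 under these changes other than TMM scaling, which was not run for them. The dispersion was 0.0429 to 0.0430 with no filter or with DESeq2 size factors. The longest-transcript length changed the TPM of 221 named genes by factors of 0.773 to 2.47, over 1.5-fold for 10 of them, higher in each case (Camk2b, Clcn3, Col1a2, Gad1, Grin1, Map2, Ntrk2, Ptprs, Reln and Tcf4). No paired analysis was possible because the results come from no test and 1 group. The depth limits a gene at 3 counts or fewer to 0.1099 and 0.1023 CPM, and 2 libraries leave every SD with 1 degree of freedom.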
